A study of Mus musculus with 19 samples.

Results

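Levels of 9 genes, Mrc2, Sfrp4, Ccdc80, Tmprss6, Insrr, Cd200r2, Slc9b2, Csdc2 and Kndc1, were described in mouse CD8 T cells that recognise a tumour antigen and in their comparison cells. They are 9 of the 53656 genes counted. They were picked from the measured values as genes of other tissues that were near 0 in naive or comparison cells and high in SV40-I cells at days 20 to 21 or in marker-high SV40-I cells at days 8 to 9, with no numeric cut-off. Their differences between those groups are therefore a description without a test. The contrast of cultured cells is not named in that rule and was tested. Comparison cells could include the GFP group, though, so low levels there may also have entered the choice.

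The study holds 19 RNA libraries of CD8 T cells of the C57BL/6 strain, in 5 groups of 3 sorted from mice and 2 groups of 2 grown in culture. Cells called SV40-I carry a transgenic T cell receptor for the large T antigen of SV40. Those called OT-I carry one for ovalbumin. The naive group held CD8+ CD44low SV40-I cells. At days 20 to 21, Thy1.1 SV40-I cells and Ly5.1 OT-I cells came from malignant liver lesions. At days 8 to 9, CD8+ Thy1.1+ SV40-I cells from such lesions were labelled either PD1hi, LAG3hi and CD39hi (marker-high) or PD1lo, LAG3lo and CD39lo (marker-low). In culture, naive SV40-I cells were activated through CD3 and CD28, given a retrovirus for GFP alone or for TOX with GFP (TOX-GFP), grown with IL-2, and collected as CD8+ GFP+ cells. Each sorted group is labelled with the SV40-I or the OT-I receptor, and the labels state no age. The tables of days 8 to 9 are headed WT where cells are marker-high and KO where they are marker-low, although no label names a genotype. The source field reads splenocytes throughout, so neither the genotype of those groups nor the tissue is certain.

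Mature T cells that meet their antigen for weeks enter a state called exhaustion or dysfunction, with lasting PD-1, LAG3 and CD39 and with the nuclear protein TOX. The 9 genes are better known elsewhere. Sfrp4 and Ccdc80 encode secreted proteins of connective tissue, Mrc2 a collagen receptor of fibroblasts, Insrr an insulin receptor relative that senses alkaline pH, and Tmprss6 the liver protease matriptase-2, which restrains the iron hormone hepcidin. Cd200r2 belongs to the CD200 receptor family of myeloid cells, Slc9b2 is a sodium-proton exchanger, Csdc2 an RNA-binding cold-shock protein of brain, and Kndc1 a neuronal Ras exchange factor with a KIND domain.

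Library totals ran from 37006508 to 54195918 counts, so 3 counts, the upper limit that a count of 0 allows, were worth 0.0554 to 0.0811 CPM, the unit used here, which scales each count by its library's total. Genes of CD8 T cells summed to between 6130 and 25400 CPM in every library. The genes behind the sort labels followed them on average, Pdcd1 at 2659 against 511 CPM, Lag3 at 38.4 against 14.5 CPM and Entpd1 (CD39) at 260 against 35.3 CPM in marker-high against marker-low cells. Marker-high library 3 stood apart from marker-high libraries 1 and 2. Across 13530 genes other than the 9, its Pearson r of log2 levels with the 3 SV40-I libraries of days 20 to 21 was 0.925 to 0.950, against 0.897 to 0.910 for libraries 1 and 2, which had r = 0.981 with each other; its own r with them was 0.953 and 0.956. Whether this library carries the right label cannot be told from the labels, and if it does not, its values below are not those of marker-high cells. Marker-high values of the 9 genes are therefore given by library below, and marker-high means include library 3 unless stated. Levels per cell and the share of expressing cells cannot be told apart in such bulk libraries, since fewer cells of a type and less RNA per cell give the same change. The labels do not say that libraries of a group came from separate animals or cultures, so the spread between them may be technical.

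Of the 9 genes, 8 shared a pattern: they were at or near 0 in naive and OT-I cells, high in all 3 SV40-I libraries of days 20 to 21, and high at days 8 to 9 chiefly in marker-high library 3. Slc9b2 ran the other way at days 8 to 9 and was lowest in that library. Every SV40-I library of days 20 to 21 lay above every OT-I library for 9 of 9 genes, which held for 14.4% of the 16404 genes tested, and below for 0 of 9 (14.7%). Every marker-high library lay above every marker-low library for 8 of 9 (9.35% of genes tested), and below for 0 of 9 (6.93%). Both contrasts entered the choice of the genes, so nothing is read from these counts. Over the 15 sorted libraries the 28 pairs among the 8 genes had r of log2(CPM + 1) from 0.852 to 0.988, while Slc9b2 had r from 0.0587 to 0.289 with them. That contrast rests on 4 libraries, the late SV40-I ones and marker-high library 3. Over the other 11 libraries, an omission chosen after the values were seen, the ranges were 0.637 to 0.961 and 0.5 to 0.836 and overlapped. The choice of genes used those 4 libraries and also groups among the 11, such as the naive cells, so neither range is a test.

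**Figure D1:**
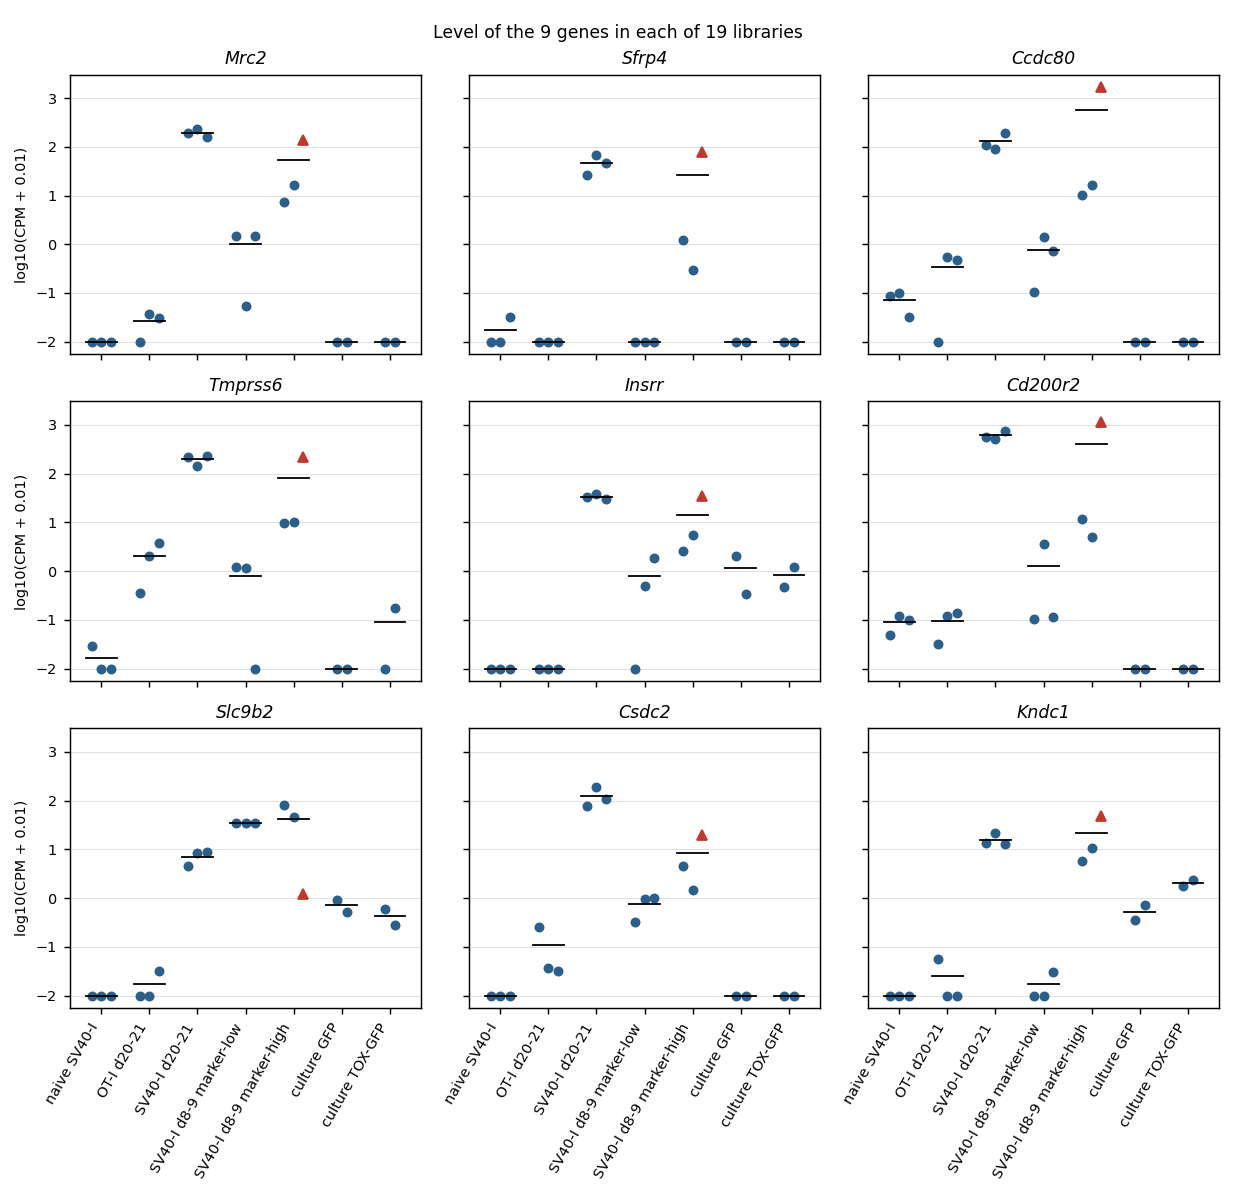
Level of each of the 9 genes in all 19 libraries, as log10(CPM + 0.01) on the vertical axis, with the 7 groups along the horizontal axis; each point is a library, the line is the logarithm of the group's mean CPM, and the red triangle is marker-high library 3. The triangle lies within or above the range of the SV40-I libraries of days 20 to 21 for 6 genes, below it for Mrc2 and Csdc2, and below every other day 8 to 9 library for Slc9b2.

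Sfrp4 encodes a secreted decoy for Wnt ligands (chromosome 13, 19623104 to 19632994, plus strand, GRCm38). It measured 26.3, 66.6 and 46.0 CPM in the SV40-I libraries of days 20 to 21. It had 0 counts in the 3 OT-I and 3 marker-low libraries, and 0, 0 and 0.0218 CPM in naive cells. Marker-high libraries held 1.18, 0.281 and 77.9 CPM, so that library 3 was as high as the late cells and libraries 1 and 2 were near 0. With each group's counts summed and divided by its summed totals, and 3 counts over the group as the floor, here and in the bounds below, the pooled late level was at least 2050-fold higher than in OT-I cells.

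Few other genes of the Wnt pathway had enough counts to be tested, and 1 was called. Of 9 other secreted Wnt antagonists none had enough counts to be tested in the sorted cells, and Sfrp1, the family's founding member, had no count in any library. Of 12 Wnt receptors 6 were tested and none was called between SV40-I and OT-I cells (median log2 difference -0.45, beside -0.04 over all genes), where a call is an adjusted p under 0.05 in edgeR's quasi-likelihood test with Benjamini-Hochberg adjustment over all genes. Of 6 targets and feedback inhibitors 3 were tested (median -0.94) and 1 was called. Axin2, a gene that Wnt signalling switches on and whose product feeds back on it, fell by 6.75 ± 1.14 (SE) on the log2 scale (adjusted p = 0.00217, edgeR). It measured 0.0706, 0.111 and 0 CPM in SV40-I cells and 7.51, 8.76 and 5.06 CPM in OT-I cells, with no overlap. Its call held under each of the 12 alternatives. At days 8 to 9 it measured 0.2017, 0.6397 and 0.05151 CPM in marker-high libraries and averaged 2.23 CPM in marker-low ones. That difference did not pass (log2 difference -2.93 ± 0.94, adjusted p = 0.199, edgeR).

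Epdr1, which encodes a secreted ependymin-related glycoprotein, lies 3.18 kb upstream of Sfrp4 and moved in the same groups. It measured 150, 141 and 91.0 CPM in late SV40-I cells against 0, 0.0540 and 0.106 CPM in OT-I cells. That rise was 11.19 ± 1.41 on the log2 scale (adjusted p = 0.000312, edgeR) and kept its call under all 12 alternatives; with so few OT-I counts its size depends on the prior count. At days 8 to 9 it measured 43.8, 56.0 and 203 CPM in marker-high and 0.859, 3.10 and 0.580 CPM in marker-low cells, a rise of 6.03 ± 1.06 (adjusted p = 0.0179, edgeR). Unlike Sfrp4, it was high in all 3 marker-high libraries, and it still passed without library 3 (5.01, adjusted p = 0.0422, edgeR). Without marker-low library 1 or 3, or with only the 2 groups compared in the fit, that second call was lost. The highest adjusted p over its 11 alternatives was 0.108 (edgeR).

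Ccdc80, a secreted matrix protein of fat and connective tissue, lies on chromosome 16 (45093402 to 45127924, plus strand). Late SV40-I libraries held 110, 88.9 and 188 CPM, against 0, 0.540 and 0.468 CPM in OT-I cells and 0.0775, 0.0876 and 0.0218 CPM in naive cells. Marker-high libraries held 10.1, 16.1 and 1665 CPM and marker-low libraries 0.0955, 1.41 and 0.704 CPM. Library 3 was thus 127 times the mean of the other marker-high libraries and 12.9 times the late mean, the widest gap of any of the 9 genes above the late cells. Srpx and Srpx2, which share a domain with Ccdc80, averaged at most 0.180 CPM in each group. Among the genes downstream of it, Btla, an inhibitory receptor of lymphocytes 96.4 kb away, fell by 4.62 ± 0.70 in late SV40-I against OT-I cells (1.03 against 26.9 CPM, adjusted p = 0.00112, edgeR).

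Mrc2, the collagen-binding receptor Endo180, lies on chromosome 11 (105292643 to 105351139, plus strand). It measured 189, 236 and 161 CPM in late SV40-I cells. Naive cells had no counts, and OT-I libraries held 0, 0.0270 and 0.0213 CPM. The pooled late level was at least 9400-fold higher than in naive cells. At days 8 to 9 marker-high libraries held 7.29, 16.3 and 138 CPM and marker-low libraries 1.48, 0.0428 and 1.45 CPM. All 3 marker-high libraries lay above all marker-low ones, and without library 3 the marker-high mean was 11.8 against 0.991 CPM. The related receptor Mrc1, known from macrophages, did not follow it and measured 0, 0.277 and 0 CPM in late SV40-I cells. None of the 4 tested genes of its family and of the urokinase receptor that Endo180 binds was called in either sorted comparison.

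Transcripts of fibroblasts were scarce where Mrc2, Ccdc80 and Sfrp4 were high. The 12 markers of fibroblasts and stellate cells, collagens and Dcn among them, summed to 0.118, 5.85 and 0.681 CPM in the late SV40-I libraries and to 6.18, 4.07 and 6.21 CPM in the marker-high ones, within 0.118 to 9.12 CPM over all 19 libraries. In late library 1, Mrc2 stood at 189 CPM with Col1a1 at 0.0235 CPM and Col3a1, Dcn, Lum and Pdgfra at 0. Markers of endothelium, bile duct and Schwann cells summed to at most 9.55, 5.86 and 11.3 CPM in any library.

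Markers of some blood cells were higher. The 6 markers of erythroid cells and platelets, globins among them, summed to 101, 117 and 1240 CPM in the marker-high libraries, highest in the library where 8 of the 9 genes were highest. They summed to 88.2, 524 and 722 CPM in late SV40-I cells and to 1530, 3250 and 1170 CPM in OT-I cells, where Tmprss6, at up to 3.83 CPM, was the highest of the 9 genes. The 5 neutrophil markers summed to 464, 323 and 260 CPM in marker-high, 382, 1870 and 155 CPM in marker-low and 0.683, 371 and 90.5 CPM in late SV40-I libraries. The 6 dendritic cell markers summed to 36.2, 51.3 and 49.1 CPM in late SV40-I and 13.0, 20.8 and 12.1 CPM in OT-I libraries. Marker-high libraries held 33.9, 20.5 and 51.8 CPM of them, marker-low ones 9.57, 110 and 2.71 CPM, and naive ones 9.57, 3.68 and 5.09 CPM. The part of these and the other cell types in the levels of the 9 genes was not tested.

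Insrr encodes a receptor tyrosine kinase (chromosome 3, 87796951 to 87816101, plus strand). It had no counts in naive or OT-I cells and measured 34.0, 37.8 and 29.9 CPM in late SV40-I cells, with the smallest spread relative to its mean of the 9 genes. The pooled late level was at least 1460-fold higher than in OT-I cells. Marker-high libraries held 2.57, 5.53 and 35.5 CPM and marker-low libraries 0, 0.492 and 1.86 CPM, again without overlap. Its relatives were low and were not called. Insr measured 3.54 CPM in late SV40-I and 4.88 CPM in OT-I cells, and Igf1r 0.340 and 0.434 CPM.

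Of 4 tested genes of the insulin receptor family and its substrates, Irs2, an adaptor below the insulin and IGF1 receptors, was called higher in late SV40-I than in OT-I cells (2.33 against 0.164 CPM, log2 difference 3.87 ± 0.85, adjusted p = 0.0121, edgeR). Its highest level was in naive cells, at 18.9, 17.6 and 32.3 CPM. Igf2r, which clears IGF2 and carries lysosomal enzymes, was lower in marker-high than in marker-low cells (-1.60 ± 0.29, adjusted p = 0.0224, edgeR). Marker-high libraries held 41.52, 30.65 and 16.77 CPM of it, and marker-low libraries averaged 87.9 CPM. The Irs2 call was lost without OT-I library 2, and the Igf2r call without marker-low library 1 or 3 or marker-high library 2. Both calls were also lost where only the 2 groups compared were fitted.

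Pear1, which codes for an EGF-repeat receptor, overlaps the span of Insrr on the opposite strand, and the deposited counts show no strand option. Pear1 and Insrr share no exon bases in the deposited coordinates. Pear1 was present in OT-I cells (34.1, 39.9 and 18.6 CPM), where Insrr had no counts. It was higher in late SV40-I cells (284, 125 and 106 CPM, 2.55 ± 0.67, adjusted p = 0.0319, edgeR). The Pear1 call was lost under 5 of 12 alternatives, including without any one OT-I library or late library 1. Sh2d2a, which encodes the T cell adaptor TSAd, lies 30.7 kb downstream of Insrr and rose from 813, 807 and 794 CPM in OT-I to 5923, 4628 and 5768 CPM in late SV40-I cells (2.82 ± 0.25, adjusted p = 2.06e-05, edgeR), under all 12 alternatives.

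Tmprss6 encodes a membrane-bound serine protease (chromosome 15, 78439667 to 78468634, minus strand). Late SV40-I libraries held 216, 143 and 230 CPM, and naive libraries 0.0194, 0 and 0 CPM. OT-I cells were not at 0 but held 0.339, 2.00 and 3.83 CPM. Marker-high libraries held 9.60, 10.4 and 221 CPM and marker-low libraries 1.19, 1.16 and 0 CPM, so the groups did not overlap and library 3 matched the late cells.

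Since hepatocytes are the known source of Tmprss6, the 10 hepatocyte markers were set beside it. They summed to 15.8, 914 and 1590 CPM in the OT-I libraries, in the same order as the low Tmprss6 values there; their part in those values was not tested. In late SV40-I cells they summed to 41.3, 1320 and 35.5 CPM, and Tmprss6 was lowest in the library richest in hepatocyte transcripts. Marker-high library 3 held 221 CPM of Tmprss6 at 16.8 CPM of hepatocyte markers. Without the libraries above 1000 CPM of these markers, late library 2 and OT-I library 3, the late values were 216 and 230 CPM and the OT-I values 0.339 and 2.00 CPM. The part of hepatocytes in the late and marker-high values was not tested either.

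**Figure D2:**
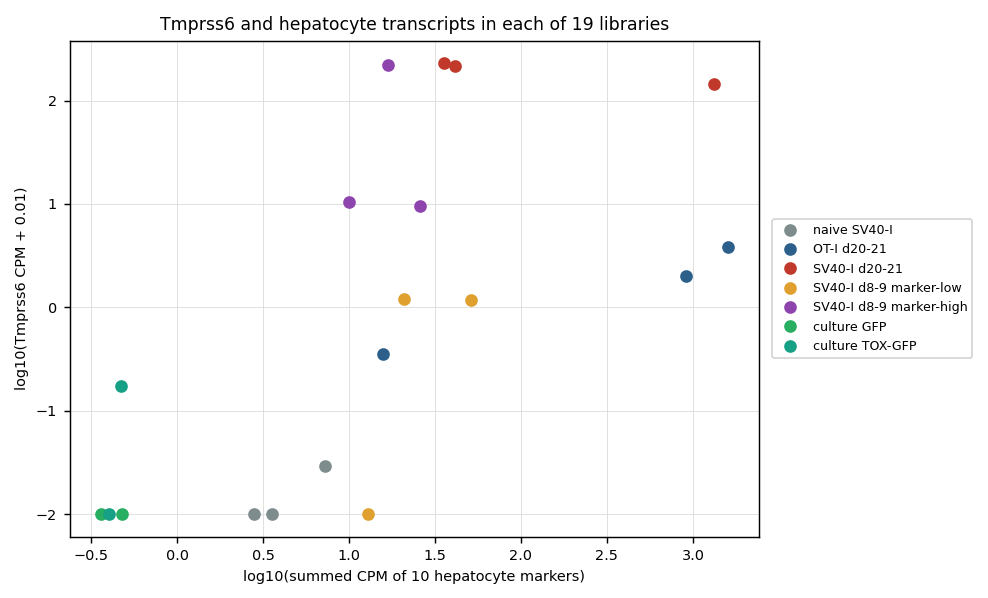
Level of Tmprss6 as log10(CPM + 0.01) against the summed level of 10 hepatocyte markers as log10 CPM, in each of 19 libraries, coloured by group. The 3 SV40-I libraries of days 20 to 21 lie within 143 to 230 CPM of Tmprss6, and their hepatocyte sums run from 35.5 to 1320 CPM.

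The iron pathway that Tmprss6 acts on in liver was not called with it: of 7 tested genes of hepcidin control and cellular iron none passed in either sorted comparison. Hamp, hepcidin itself, is also among the 10 hepatocyte markers. It averaged 3.73 ± 6.31 (SD, n = 3) CPM in late SV40-I and 4.88 ± 4.72 CPM in OT-I cells. Late SV40-I libraries held 0.1412, 11.02 and 0.04129 CPM of Hamp, highest in library 2, the late library richest in hepatocyte transcripts. OT-I libraries held 0, 5.215 and 9.421 CPM, in the same order as their hepatocyte sums. The part of hepatocytes in these Hamp values was not tested. St14, the close relative matriptase of epithelia, rose in late SV40-I cells (272, 277 and 207 against 53.0, 41.5 and 40.9 CPM; 2.53 ± 0.33, adjusted p = 0.000453, edgeR) under all 12 alternatives. It also rose in marker-high cells, at 195, 203 and 238 CPM against 48.0, 62.7 and 23.6 CPM (2.21 ± 0.33, adjusted p = 0.00908, edgeR), and library 3 did not stand apart. That call was lost, at adjusted p = 0.108 in edgeR, where only the 2 groups compared were fitted, a setting that called 4 genes in all.

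Upstream of Tmprss6, Il2rb, the IL-2 receptor beta chain 10.6 kb away, was at 11690, 11680 and 11540 CPM in late SV40-I and 5373, 4200 and 6471 CPM in OT-I cells (1.17 ± 0.34, adjusted p = 0.0489, edgeR). C1qtnf6, a secreted C1q-related protein 54.7 kb away, measured 136, 132 and 163 CPM in late SV40-I against 5.00, 6.46 and 3.98 CPM in OT-I cells, and 15.3, 14.7 and 185 CPM in the marker-high libraries (late against OT-I 4.88 ± 1.32, adjusted p = 0.0365, edgeR). Both calls were lost under 9 of 12 alternatives, including without each single library, with C1qtnf6 still between 4.73 and 4.96 on the log2 scale when a library was left out.

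Cd200r2 (chromosome 16, 44867097 to 44915840, plus strand) had the highest level per length of the 9 genes in late SV40-I cells. It averaged 353 ± 72.7 (SD, n = 3) CPM per kb of exon there, followed by Tmprss6 at 58.4 ± 13.8, Ccdc80 at 31.2 ± 12.6, Mrc2 at 29.3 ± 5.65, Csdc2 at 27.3 ± 13.0, Sfrp4 at 11.1 ± 4.83, Insrr at 5.93 ± 0.684, Kndc1 at 1.48 ± 0.445 and Slc9b2 at 1.30 ± 0.425 CPM per kb. Cd200r2 lay above all others in every library. Ranges of neighbours in this order overlapped except between Cd200r2 and Tmprss6, between Csdc2 and Sfrp4 and between Insrr and Kndc1.

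In CPM, Cd200r2 measured 577, 515 and 760 in late SV40-I cells, against 0.0226, 0.108 and 0.128 in OT-I and 0.0388, 0.110 and 0.0873 in naive cells. Marker-high libraries held 11.6, 5.09 and 1178 CPM and marker-low libraries 0.0955, 3.62 and 0.104 CPM. Library 3 was 141 times the mean of the other marker-high libraries. Of the 50-base windows along its transcript, 4.35% also occur in another gene, mainly Cd200r4; how reads in them were counted was not tested.

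Cd200r2 sits in a cluster of genes of the CD200 receptor family. Of these, CD200R1 binds the membrane protein CD200 and restrains myeloid cells through Dok1 and Dok2. Of 7 genes of this family and its partners, 5 were higher in late SV40-I than in OT-I cells and none lower, with a median log2 difference of 3.21; over all genes tested 4.91% were called higher and the median was -0.04. Cd200r1 measured 49.6, 208 and 167 CPM against 0.0905, 4.00 and 0.617 CPM (6.63 ± 1.43, adjusted p = 0.0111, edgeR). Cd200r4, a receptor that signals through an activating adaptor, measured 166, 314 and 271 CPM against 20.7, 25.2 and 14.5 CPM (3.70 ± 0.78, adjusted p = 0.00936, edgeR). Neither pair of groups overlapped. Cd200, the ligand, was at 11.9, 16.7 and 12.8 CPM against 1.72, 0.919 and 1.96 CPM (3.21 ± 0.78, adjusted p = 0.0217, edgeR), and Dok1 at 138 against 57.7 CPM (1.32 ± 0.29, adjusted p = 0.0115, edgeR). Cd200r3, a gene of mast cells and basophils, was at 0.165, 0.240 and 2.17 CPM in late cells and had no counts in OT-I cells (pooled level at least 36.8-fold higher, adjusted p = 0.0459, edgeR). Late library 3 held 105 of its 125 counts, and without it the bound was 8.84-fold. Mast cell and basophil markers ran in the same order in the late libraries, at 2.82, 3.71 and 7.0 CPM, and summed to 1.42 to 3.65 CPM in OT-I cells; their part was not tested.

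All 5 calls were lost without the hepatocyte-rich libraries, late library 2 and OT-I library 3, at adjusted p from 0.0530 (Dok1) to 0.136 (Cd200r3) in edgeR. Cd200r1 and Cd200r4 were also lost without OT-I library 3 alone (adjusted p = 0.0562 and 0.0503, edgeR), Dok1 without OT-I library 2, Cd200 without any OT-I library or late library 2, and Cd200r3 without any single library. Macrophage markers summed to 27.7, 268 and 104 CPM in the late SV40-I libraries, in the same order as Cd200r1 and Cd200r4, and to 75.6, 77.6 and 88.5 CPM in OT-I cells; their part was not tested.

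At days 8 to 9, Cd200r4 was higher in marker-high cells, at 30, 55.8 and 405 CPM against 5.27, 5.03 and 6.28 CPM (4.87 ± 0.82, adjusted p = 0.0159, edgeR), and at 2.92 (adjusted p = 0.00555, edgeR) without library 3. The call was lost without marker-low library 1 or 3 and where only the 2 groups compared were fitted. It was 1 of the 7 genes of the family, beside 0.475% of all genes called higher. Cd200r1, at 22.2, 37.4 and 96.7 against 0.0477, 3.32 and 0.663 CPM, did not pass (5.26 ± 1.35, adjusted p = 0.0880, edgeR). Macrophage markers summed to 1930, 807 and 1310 CPM in marker-high and to 459, 2020 and 63.6 CPM in marker-low libraries. Cd200r4 was highest in library 3 and these sums in library 1; their part was not tested.

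Slc9b2 (chromosome 3, 135307700 to 135345387, plus strand) had a different time course. It measured 35.2, 34.1 and 34.8 CPM in marker-low cells, with a spread of 0.557 CPM (SD, n = 3), and 81.4, 45.3 and 1.21 CPM in marker-high cells. Late SV40-I libraries held 4.45, 8.23 and 8.71 CPM. Naive cells had no counts and OT-I libraries held 0, 0 and 0.0213 CPM, so the gene was on in SV40-I cells of both day 8 to 9 groups and lower at days 20 to 21. Marker-high library 3 lay below every other SV40-I library from lesions, while libraries 1 and 2 lay above all marker-low ones, so the 2 groups of days 8 to 9 overlapped.

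Its closest relative Slc9b1, the next gene downstream, had no counts in any sorted library. Of 6 tested sodium-proton exchangers, Slc9a9, an endosomal one, was lower in late SV40-I than in OT-I cells (45.5 against 187 CPM, -1.97 ± 0.29, adjusted p = 0.000947, edgeR, under all 12 alternatives), and the rest were not called. Ube2d3, a ubiquitin-conjugating enzyme 92.8 kb downstream, was also lower (195 against 458 CPM, -1.16 ± 0.22, adjusted p = 0.00491, edgeR).

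The genes most like Slc9b2 over the 15 sorted libraries, of 9537 genes compared, were Cd200 (r = 0.969), Slc29a1, a nucleoside transporter (r = 0.953), and Spry1, an inhibitor of receptor signalling (r = 0.948). Cd200 stood at 96.0, 176 and 116 CPM in marker-low, 181, 132 and 7.47 CPM in marker-high and 11.9, 16.7 and 12.8 CPM in late cells. Spry1 stood at 78.6, 106 and 98.8 CPM, 43.9, 31.7 and 7.24 CPM, and 19.2, 15.7 and 13.4 CPM in the same groups. Marker-high library 3 was the lowest of the day 8 to 9 libraries for each of these genes. Among the day 8 to 9 libraries, marker-high library 3, whose label is uncertain, was therefore highest for Cd200r2 and lowest for Cd200. Marker-high libraries 1 and 2, with 181 and 132 CPM of Cd200, held 11.6 and 5.09 CPM of Cd200r2. Marker-low libraries held at most 3.62 CPM of Cd200r2, in library 2, where Cd200 was also highest of that group.

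Csdc2 (chromosome 15, 81936759 to 81950941, plus strand) was higher in every late SV40-I library than in any other. It measured 78.1, 194 and 107 CPM in late SV40-I cells and 4.51, 1.43 and 19.3 CPM in marker-high cells, a late mean 15 times the marker-high mean, the highest such ratio of the 9 genes. Without marker-high library 3 the ratio was 42.5, below those of Cd200r2 (74.1) and Sfrp4 (63.2). Marker-low libraries held 0.310, 0.963 and 0.974 CPM, OT-I libraries 0.249, 0.0270 and 0.0213 CPM, and naive libraries no counts. In marker-high library 3 it reached 0.153 of the late mean, lower than the other 7 genes of the shared pattern, which reached 0.708 to 12.9 times theirs. Its relative Carhsp1 was broadly present, at 157 CPM in late SV40-I and 106 CPM in OT-I cells, and none of 5 tested cold-shock proteins was called in either sorted comparison. Its neighbour Pmm1, a mannose-phosphate enzyme 0.167 kb downstream, was called at 21.9 against 9.37 CPM (1.28 ± 0.37, adjusted p = 0.0475, edgeR). The Pmm1 call was lost under 9 of 12 alternatives, including without each single library.

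Kndc1 (chromosome 7, 139894696 to 139941537, plus strand) held 13.6, 21.4 and 12.7 CPM in late SV40-I cells, and 5.67, 10.6 and 47.7 CPM in marker-high cells. Naive cells had no counts, marker-low libraries 0, 0 and 0.0207 CPM, and OT-I libraries 0.0453, 0 and 0 CPM. Late and marker-high ranges overlapped through marker-high library 3 alone, and marker-low cells were at the limit of detection. The ratio of marker-high to marker-low cells, which held 1 count in all, was 2900 with a 95% counting interval of 521 to 115000, and this interval covers counting error only. Library 3 held 1854 of the 2495 marker-high counts, and without it the ratio was 1110 (199 to 44100). Of 5 tested KIND domain proteins and Ras exchange factors, Rasgrp1, the exchange factor below the T cell receptor, was lower in late SV40-I than in OT-I cells (6.38 against 22.4 CPM, -1.72 ± 0.41, adjusted p = 0.0196, edgeR). The Rasgrp1 call was lost under 6 of 12 alternatives, including without OT-I library 2 or 3 or late library 1 or 2. Adam8, a membrane protease 37.4 kb downstream, measured 547, 357 and 329 CPM in late SV40-I and 15.7, 17.2 and 15.1 CPM in OT-I cells (4.75 ± 1.14, adjusted p = 0.0194, edgeR). The Adam8 call was lost under 4 of 11 alternatives, including without any one of the OT-I libraries. Tubgcp2, a component of the gamma-tubulin complex 54.4 kb downstream, was higher in marker-high than in marker-low cells (0.89 ± 0.19, adjusted p = 0.0451, edgeR). It measured 196.8, 198.5 and 229.4 CPM against 106.0, 124.7 and 100.6 CPM. That call was lost under 10 of 11 alternatives, including without each single library.

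RefSeq promoter windows (GRCm38.p6, 250 bases before to 50 after the start) were held for 3 of the 9 genes. All 3 are shown, so that the gene with the highest late level per length, Cd200r2, can be set beside Slc9b2, whose time course differed. Capitals mark matches on either strand to 6 motifs. The NFAT core was searched as GGAAA, which 61.3% of all 32851 promoter windows held. The AP-1 letters were TGANTCA (7.81% of windows), and those of RUNX were TGTGGT (16.8%). The nuclear receptor half-site was AAGGTCA (4.72%). For the GC box the letters were GGGCGG (35.7%). The TATA box was TATAAA (13.6%). The windows are chr16:44866847-44867146, chr3:135307450-135307749 and chr7:139894446-139894745, all on the plus strand.
Cd200r2: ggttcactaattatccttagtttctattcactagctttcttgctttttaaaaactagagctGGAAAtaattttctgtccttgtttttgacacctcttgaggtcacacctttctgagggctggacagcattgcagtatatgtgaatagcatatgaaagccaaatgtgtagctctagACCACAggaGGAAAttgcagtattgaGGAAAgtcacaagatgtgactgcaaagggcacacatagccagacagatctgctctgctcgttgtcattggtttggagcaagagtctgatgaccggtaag
Slc9b2: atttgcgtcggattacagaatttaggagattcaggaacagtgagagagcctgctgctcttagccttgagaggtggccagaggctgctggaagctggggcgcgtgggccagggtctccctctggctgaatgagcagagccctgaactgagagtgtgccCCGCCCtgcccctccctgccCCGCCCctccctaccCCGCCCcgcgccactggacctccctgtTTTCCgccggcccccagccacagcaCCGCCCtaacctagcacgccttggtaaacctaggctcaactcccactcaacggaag
Kndc1: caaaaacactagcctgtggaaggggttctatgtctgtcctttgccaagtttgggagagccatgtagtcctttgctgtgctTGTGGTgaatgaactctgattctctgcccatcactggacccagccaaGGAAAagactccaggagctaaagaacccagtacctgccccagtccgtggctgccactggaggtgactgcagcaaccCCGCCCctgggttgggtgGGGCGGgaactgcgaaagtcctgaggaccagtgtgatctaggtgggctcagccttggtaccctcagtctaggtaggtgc
The Cd200r2 window had the NFAT core at -189, -66 and -49 and the RUNX hexamer at -75 from the start, no GC box, 42.0% GC and 2 CpG. The Slc9b2 window had GC boxes at -93, -73, -58 and -6, the NFAT core at -31, 63.3% GC and 14 CpG. The Kndc1 window had GC boxes at -47 and -29, the NFAT core at -123, the RUNX hexamer at -170, 56.3% GC and 4 CpG. None of the other motifs matched in these windows. Over all windows the medians were 52.7% GC and 7 CpG. Cd200r2 thus had fewer CpG than the median window and Slc9b2 more, and these matches are a description of letters, not of binding.

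Genes near the 9 were compared as a group, since position played no part in the choice. Of 72 genes within 100 kb, 41 could be tested in the sorted cells. Between late SV40-I and OT-I cells 11 were higher and 2 lower, with a median log2 difference of 0.42, beside 805 higher and 674 lower of 16404 genes (9.02% called in all, 4.91% higher and 4.11% lower) and a median of -0.04. These 11 include the 3 Cd200r genes already described. Between marker-high and marker-low cells, 3 neighbours were higher (Epdr1, Cd200r4 and Tubgcp2) and none lower, with a median of 0.50, beside 78 higher and 118 lower of all genes (1.19% called, 0.719% lower) and a median of 0.00. The 2 comparisons use different libraries but share 1 fit. The count of neighbours called in the first fell from 13 to 6 without OT-I library 3, and that in the second from 3 to 0 without marker-low library 1 or 3.

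Some genes beside a member were low or not called. Bdh2, 3.27 kb from Slc9b2, averaged 2.17 CPM in marker-low and 2.95 CPM in marker-high cells, the groups where Slc9b2 was highest. It averaged at most 0.165 CPM in any other group. Kctd17, 0.364 kb from Tmprss6, was at 14.3 CPM in late SV40-I and 5.78 CPM in OT-I cells and was not called (1.40 ± 0.79, adjusted p = 0.336, edgeR). Tlk2, a kinase 8.68 kb from Mrc2, was at 0.501 and 1.66 CPM in those groups and was not called. Of the 89 genes of the related lists, 52 were tested. Between late SV40-I and OT-I cells 7 were higher and 3 lower (median -0.03), beside 4.91% and 4.11% of all genes tested. Of those 7, 5 were on the CD200 family list, and its Cd200r genes are also counted as neighbours. Between marker-high and marker-low cells 2 were higher and 1 lower (median 0.00), beside 0.475% and 0.719% of all genes tested. Ccdc80 and Cd200r2 lie 177.6 kb apart on chromosome 16, and no other pair of the 9 genes lies closer than 3468 kb.

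**Figure D3:**
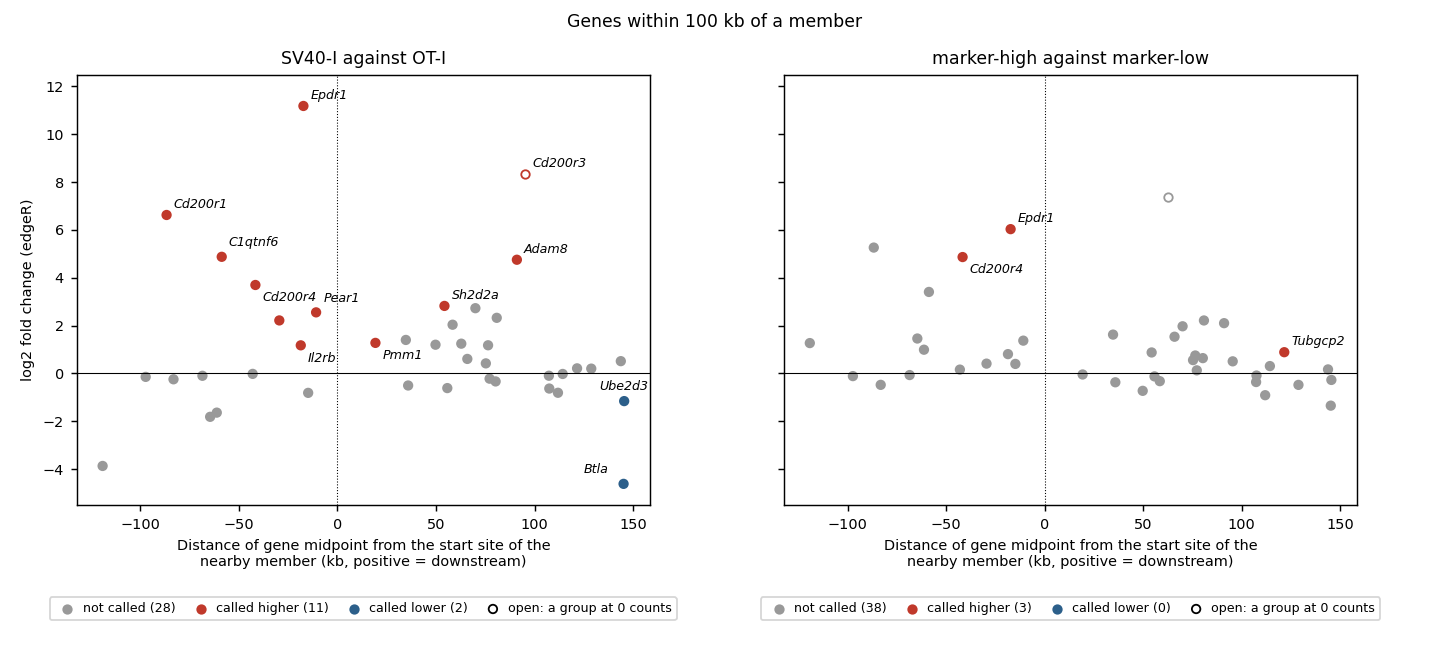
Log2 fold change from edgeR of the 41 tested genes within 100 kb of one of the 9 genes, against the distance in kb of each gene's midpoint from the start site of that nearby member, for SV40-I against OT-I cells (left) and marker-high against marker-low cells (right). Red and blue points are called higher and lower, grey points are not called, not every called point is labelled, and open points have a group at 0 counts, where the fitted value depends on the prior count; 11 of 41 are red on the left and 3 on the right.

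The contrast of cultured cells is not named in the rule that chose the genes, and asked whether TOX added by a retrovirus brings the 9 genes on. Low levels in GFP cells may have entered the choice, so low counts there are a description. Tox measured 156 and 118 CPM in TOX-GFP and 13.8 and 21.4 CPM in GFP cells, below the late SV40-I libraries at 666, 879 and 949 CPM; reads from the vector's coding sequence would be counted in it. Mrc2, Sfrp4, Csdc2, Ccdc80 and Cd200r2 had 0 counts in all 4 libraries, so that each was under 3 counts a library. Tmprss6 had 8 counts in TOX-GFP library 2 (0.164 CPM) and none elsewhere. Cd200r2, the gene with the highest late level, was among the 5 at 0, none of which was detectable at this depth.

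The other 3 genes passed the filter on low counts. Kndc1 measured 1.73 and 2.39 CPM with TOX and 0.338 and 0.698 CPM without, a log2 difference of 1.98 ± 0.52 that did not pass (adjusted p = 0.255, edgeR). Its groups did not overlap, as for 24.3% of the 14614 genes tested in that direction and 23% in the other. Without GFP library 2 the log2 difference of Kndc1 was 2.58, in a fit that left 1 GFP library, assumed to vary like the 2 TOX-GFP ones. Insrr measured 0.456 and 1.21 CPM with TOX and 2.01 and 0.327 CPM without it (-0.50 ± 0.93, adjusted p = 0.868, edgeR). Its sign turned without TOX-GFP library 1 (0.04) or without GFP library 1 (1.33), the latter leaving GFP library 2 alone. Slc9b2 measured 0.589 and 0.266 CPM with TOX and 0.902 and 0.501 CPM without (-0.71 ± 0.69, adjusted p = 0.715, edgeR), with overlap. Of all genes tested edgeR called 0 (0%), Tox among those not called (2.96 ± 0.26, adjusted p = 0.207), with 1906 at an unadjusted p under 0.05, and DESeq2 called 560. DESeq2 gave no adjusted p for the 3 members. Among the 43 related genes and 38 neighbours tested, edgeR called 0, with medians of 0.11 and -0.03 beside 0.01 for all genes.

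**Figure D4:**
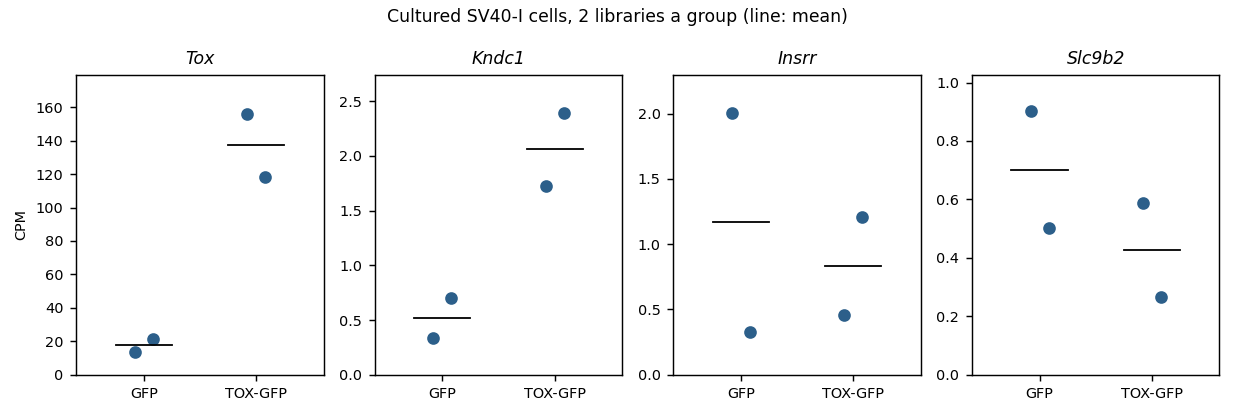
Level in CPM of Tox, Kndc1, Insrr and Slc9b2 in 2 GFP and 2 TOX-GFP libraries of cultured SV40-I cells; points are libraries and lines are means, and each panel has its own axis from 0. Tox and Kndc1 are higher in both TOX-GFP libraries than in both GFP libraries, while Insrr and Slc9b2 overlap.

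The 3 genes most like each of the other 8 were named by the same measure. Over the 15 sorted libraries Sfrp4 ran with Glis1 (r = 0.987), a zinc finger factor, Vipr2, a receptor for the neuropeptide VIP, and Klrb1. Cd200r2 ran with Vipr2 (r = 0.985), Rhod and Glis1, and Kndc1 with Insc (r = 0.982), an adaptor of spindle orientation, Cdcp2 and Epdr1 (r = 0.976). Mrc2 and Insrr were each other's closest gene (r = 0.988), Mrc2 being followed by the clone-named loci RP23-155G13.1 and RP23-298B23.1, and Insrr by Eml1 and Ripply3. Tmprss6 ran with Sept4 (r = 0.981), RP24-166N8.6 and Kdf1, Ccdc80 with Ripply3 (r = 0.976), Cdcp2 and Cd200r2, and Csdc2 with RP24-180M2.2 (r = 0.981), RP23-128L6.4 and AC161510.1. These correlations rest on groups of 3 libraries that share their condition, and clone-named loci are uncertain because the counts carry no strand. With a pseudocount of 0.1 in place of 1 CPM, 7 of the 9 lists kept no more than 1 of their 3 genes.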

How the data were processed

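Amplified RNA (SMART-seq V4) of 19 libraries was sequenced as paired ends, per the labels' protocols. The deposited tables hold whole-number counts per gene, not normalized, made per the file headers with featureCounts 1.6.2 against GENCODE M17 on GRCm38, and the file headers show no strand option. Also named in the submitters' processing notes are FastQC, STAR and DESeq2. No column of sample values was left unused.

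Levels are CPM of library totals. One fit held the 15 sorted libraries, a coefficient for each group (16404 genes), and another the 4 cultured ones (14614 genes), both in edgeR 4.0.16 (R 4.3.3; TMM, filterByExpr, robust quasi-likelihood F tests), with Benjamini-Hochberg adjustment over all genes and a threshold of 0.05. DESeq2 1.42.0 was an alternative. Errors of log2 differences are standard errors worked back from F. The scripts were tested on simulated data.

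All 9 genes passed the filter in the sorted cells and 3 in culture. Members and lists were chosen with earlier results of these data known. Genes named are the 9, the called related genes (up to 3 a list) and closest relatives, called neighbours (up to 2 a gene, within 100 kb), and the 3 genes most like each by r. Cd200 and Dok1, which were called, and Bdh2, Kctd17, Tlk2 and other uncalled genes are examples chosen after their values were seen. A called neighbour is not reported here. Alternatives were RLE scaling, no filter, DESeq2, other libraries in the fit, each library left out, a replicate block, and omission of libraries above 1000 CPM of hepatocyte markers.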

Additional observations from a re-analysis of the deposited data

How the results depend on the processing

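Among 20 named related and neighbouring genes called between SV40-I and OT-I cells, 8 kept their call under every alternative run (among them Axin2, Btla, Epdr1, Sh2d2a, Slc9a9, St14 and Ube2d3) and none reversed; of 5 called between marker-high and marker-low cells, none kept it under all. Between SV40-I and OT-I cells, 1479 genes were called, with 2444 by DESeq2 and 689 without the hepatocyte-rich libraries, where 5 related genes and 6 neighbours were called. Leaving out 1 library gave 872 to 1111 genes, 5 to 9 related genes and 6 to 9 neighbours. Between marker-high and marker-low cells, 196 genes were called, with 732 by DESeq2 (7 related genes and 6 neighbours) and 4 in a fit of only the 2 groups compared (0 related genes and 0 neighbours). Leaving out 1 library gave 38 to 159 genes, 1 to 3 related genes and 0 to 2 neighbours. Between TOX-GFP and GFP cells the count of 0 became 6 without a filter and 560 by DESeq2 (1 neighbour), and 0 to 1400 genes, 0 to 5 related genes and 0 to 2 neighbours with 1 library left out, the highest without GFP library 2. With a library left out Insrr ranged from -1.35 to 1.33, Slc9b2 from -1.40 to -0.23 and Kndc1 from 1.55 to 2.58 on the log2 scale; the cause was not tested. Of 252 alternative member levels, 251 moved by less than the spread between libraries; Slc9b2 in marker-low cells moved to 36.8 CPM with TMM scaling. Levels under 3 counts a library were not detectable.

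Replicate numbers are shared across groups, but the labels do not tie them to a shared animal, batch or day. Deviations of same-numbered libraries had correlations of 0.361, 0.0999 and 0.0450 for SV40-I and OT-I cells, 0.0726, -0.388 and -0.0978 for marker-high and marker-low cells, and 0.152 for both culture pairs, so the numbers were not treated as a pairing. With the replicate block, 1430 genes (10 related, 10 neighbours) were called between SV40-I and OT-I cells, 144 (4 and 3) between marker-high and marker-low cells and 0 in culture, where Insrr, Slc9b2 and Kndc1 stood at -0.18, -0.76 and 2.04.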

Other observations

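Of the 9 genes, 7 fell in a wider set with a like profile. With thresholds chosen after the values were seen, at least 10 CPM on average in SV40-I cells of days 20 to 21 and under 0.5 CPM in both naive and OT-I cells, 47 of 53656 genes qualified, among them 7 of the 9 members; Tmprss6 (2.06 CPM in OT-I cells) and Slc9b2 (7.13 CPM in late cells) did not. Of the 40 others, 29 were higher in marker-high library 3 than in the mean of marker-high libraries 1 and 2, with a median ratio of 2.15. In every cultured library 23 were under 0.5 CPM. The shares over all genes were not worked out. The late level that chose these genes also favours library 3, the marker-high library closest to the late ones. Nothing is therefore read from these counts. The 40 include genes of peptide signalling named here after their values were seen: Calcb, a calcitonin gene-related peptide, at 203 CPM in late SV40-I against 0.0406 CPM in OT-I cells, Glp1r, the receptor for the gut hormone GLP-1, at 83.3 against 0.325 CPM, and Vipr2 at 43.1 against 0.00709 CPM. No test was made of these genes, since the same values chose them.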
